A study of Mus musculus with 6 samples.

Results

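The 10 genes described here encode the cyclins, cyclin-dependent kinases (CDKs), phosphatase and mitotic kinases that carry a germ cell through its divisions, namely Ccna1, Ccna2, Ccnb1, Ccnb2, Ccnb3, Cdk1, Cdk2, Cdc25c, Plk1 and Aurkc. They were taken by gene symbol from a table of 55711 entries, and all 10 were found, each once. RNA of whole testis of C57BL6 mice was sequenced in 3 libraries labelled Tmc7 knockout and in 3 libraries labelled Tmc7 heterozygote, so the heterozygotes used as controls also carry 1 altered Tmc7 copy by their label. The product of Tmc7 belongs to the transmembrane channel-like proteins, and the series is titled for its role in elongated spermatids. The labels do not give the age, the Tmc7 allele, or how many animals stand behind each group, so the p-values measure the spread between these libraries, which may be technical.

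A CDK usually needs a cyclin to be active. The pair is held back by inhibitory phosphates until a phosphatase of the Cdc25 family removes them. Active CDK1 with a B-type or A-type cyclin drives entry into division, and destruction of the cyclins by the anaphase-promoting complex ends it. In the testis, spermatogonia divide by mitosis and spermatocytes by meiosis, and several of the 10 genes have a partner gene used mainly in one of these settings: cyclin A1 in spermatocytes and cyclin A2 in mitotic cells, Aurora C in meiosis and its relatives Aurora A and B more widely.

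All 10 genes were measured above the filter of a mean of 0.5 FPKM, and none passed the test between the groups. FPKM (fragments per kilobase of gene, scaled to library size) is a level per length, which allows genes to be set side by side. Differences are knockout minus heterozygote on the log2(FPKM + 1) scale, which understates the change of low genes. With limma and Benjamini-Hochberg adjustment over all 19168 genes tested, 0 of the 10 had an adjusted p under 0.05, as did 0% of all genes tested. At an unadjusted p under 0.05 there were also 0 of the 10, against 1.48% of all genes tested that were higher and 2.38% that were lower in the knockout-labelled libraries. In each of the 10 genes the values of the 2 groups overlapped, whereas 4.15% of all genes tested were higher and 4.41% lower in every knockout-labelled library than in every heterozygote library. With 10 genes a count of 0 is close to these shares and is no result about the genes as a set. The differences ran between -0.13 (Cdc25c) and 0.13 (Cdk1), 6 above 0 and 4 below, with a median of 0.03 beside -0.01 over all genes tested.

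The libraries held 19343479, 17397662 and 18140921 reads labelled knockout and 17059486, 18528046 and 18629233 reads labelled heterozygote, as recovered from the FPKM values. Tmc7 itself had 43.8, 41.9 and 35.1 FPKM in the knockout-labelled libraries, against 39.1, 37.7 and 37.2 FPKM in the heterozygote libraries, a log2 difference of 0.08 (SE 0.10, limma, Benjamini-Hochberg adjusted p = 0.885). The amount of Tmc7 transcript therefore does not check the labels, and directions are given as differences between libraries so labelled. By chi-square between libraries, knockout-labelled library 1 lay nearer to every heterozygote library than to the rest of its own group, which limits every group difference given here. In RNA of whole testis, fewer cells of a type and less RNA per cell cannot be told apart.

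Promoter sequences are shown for 4 of the genes because they hold the elements through which division genes are commonly timed. The cell cycle genes homology region (CHR, TTTGAA, or TTCAAA on the other strand) is bound by the MuvB complex, and the CCAAT box (CCAAT, or ATTGG) by NF-Y. The sequences are from RefSeq, build GRCm38.p6, written 5' to 3' on the gene's own strand from 250 bases before the start to 50 bases from the start onward, and capitals mark both elements in either orientation. They are Ccnb2 at chr9:70421505-70421804 (minus strand), Cdk1 at chr10:69352863-69353162 (minus strand), Plk1 at chr7:122159185-122159484 (plus strand) and Ccna1 at chr3:55055006-55055305 (minus strand).
Ccnb2: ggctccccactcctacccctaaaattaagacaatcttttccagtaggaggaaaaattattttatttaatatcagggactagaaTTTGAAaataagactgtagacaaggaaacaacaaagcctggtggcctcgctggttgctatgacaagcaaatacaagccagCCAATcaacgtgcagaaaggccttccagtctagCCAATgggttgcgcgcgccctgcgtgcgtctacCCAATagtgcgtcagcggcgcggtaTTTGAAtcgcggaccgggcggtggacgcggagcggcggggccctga
Cdk1: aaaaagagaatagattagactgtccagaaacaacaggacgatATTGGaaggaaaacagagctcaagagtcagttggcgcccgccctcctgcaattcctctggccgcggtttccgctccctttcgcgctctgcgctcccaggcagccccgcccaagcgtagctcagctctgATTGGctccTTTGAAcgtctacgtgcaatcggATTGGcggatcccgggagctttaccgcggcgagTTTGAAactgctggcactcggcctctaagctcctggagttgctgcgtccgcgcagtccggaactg
Plk1: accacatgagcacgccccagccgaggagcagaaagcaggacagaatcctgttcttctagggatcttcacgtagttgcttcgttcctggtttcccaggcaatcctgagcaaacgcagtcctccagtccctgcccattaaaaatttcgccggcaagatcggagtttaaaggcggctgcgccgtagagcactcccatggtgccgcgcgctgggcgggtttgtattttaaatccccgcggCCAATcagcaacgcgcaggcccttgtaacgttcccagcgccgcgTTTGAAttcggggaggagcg
Ccna1: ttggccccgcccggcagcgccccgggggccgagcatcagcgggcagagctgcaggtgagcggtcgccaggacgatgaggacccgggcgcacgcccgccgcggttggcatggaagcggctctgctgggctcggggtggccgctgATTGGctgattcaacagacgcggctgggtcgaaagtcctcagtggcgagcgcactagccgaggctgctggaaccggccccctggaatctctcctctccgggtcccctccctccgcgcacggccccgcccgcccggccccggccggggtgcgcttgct

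A RefSeq promoter was matched for 8 of the 10 genes. The letters of a CHR were in 3 of these 8, Ccnb2, Cdk1 and Plk1, against 17.9% of 32851 RefSeq mouse promoters of the same length. A CCAAT box was in 7 of the 8, all but Ccnb3, against 37.4%. Both were in the same 3 promoters that had a CHR, against 7.0% of all promoters. In Ccnb2, CHRs began 167 bases before the start and 4 bases into the transcript, and 3 CCAAT boxes lay 87, 54 and 21 bases before the start. In Cdk1, CHRs began 71 and 15 bases before the start, with reversed CCAAT boxes at 208, 80 and 48 bases before it. Ccna1 had a reversed CCAAT box 107 bases before the start and no CHR in this window, in a sequence of 74.0% G and C. The Ccna1 window, chr3:55055006-55055305, lies wholly inside the annotated gene span, chr3:55045469-55055501. Sequence before the annotated gene start was therefore not searched for Ccna1. The short core of the MYB family (AACNG, or CNGTT) was in 7 of the 8, all but Ccnb2, and in 80.3% of all promoters. These are matches of letters in a fixed window and do not say whether a factor binds.

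The level of Ccnb2 was the highest of the 10 genes in both groups, followed by Ccna1 and Plk1. Averages in the knockout-labelled libraries were 99.7 ± 3.81 FPKM for Ccnb2, 74.8 ± 10.1 FPKM for Ccna1, 57.1 ± 3.68 FPKM for Plk1 and 22.1 ± 1.70 FPKM for Ccnb1 (SD, n = 3). The next were Cdk2 with 12.6 ± 1.98 FPKM, Aurkc with 9.85 ± 0.629 FPKM, Cdc25c with 8.64 ± 1.69 FPKM and Cdk1 with 8.62 ± 0.907 FPKM, and Ccna2 and Ccnb3 came last with 2.36 ± 0.282 and 1.24 ± 0.228 FPKM. The heterozygote libraries gave the same order of means. Neighbours in the order did not overlap in their library values except Aurkc with Cdc25c in both groups, Cdc25c with Cdk1 in the knockout-labelled libraries, and Cdk2 with Aurkc in the heterozygote libraries. Over the 6 libraries, 97.2% of the genes tested had a lower mean FPKM than Ccnb2, 96.1% than Ccna1, and only 38.0% and 24.0% than Ccna2 and Ccnb3.

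**Figure D1:**
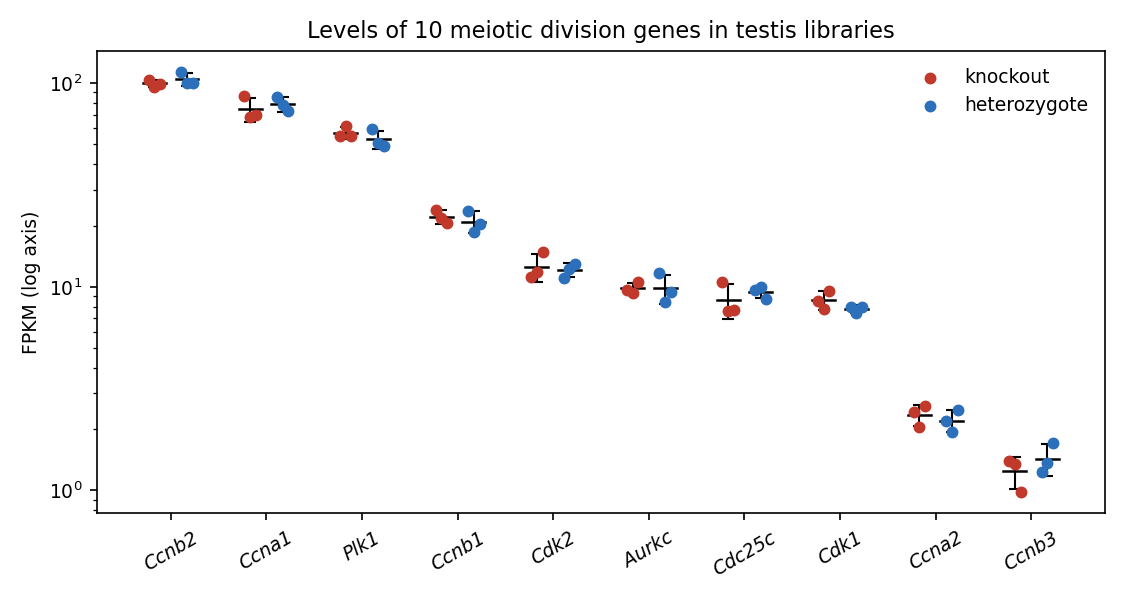
Level of each of the 10 genes in FPKM on a log axis, with each library as a point and the mean and SD over 3 libraries beside it, the knockout-labelled libraries left of the heterozygote libraries. The 2 groups overlap in every gene, from Ccnb2 at about 99.7 FPKM in the knockout-labelled libraries to Ccnb3 at about 1.24 FPKM.

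The order depends on the length by which reads are divided, since the table's gene length counts untranslated sequence and every annotated exon. For Cdk2 the table's length was 6219 bases and the coding sequence of its principal GENCODE M21 transcript 894 bases, a ratio of 6.96, and for Cdk1 the lengths were 4934 and 891 bases, a ratio of 5.54. Divided by coding length instead, a choice made after seeing the data, Cdk2 stood behind Ccnb2 and Ccna1 with 87.5 ± 13.8 in the knockout-labelled libraries and 84.2 ± 6.61 in the heterozygote libraries (SD, n = 3 each, FPKM rescaled to coding length). Cdk1 had 47.7 ± 5.02 in the knockout-labelled libraries and 43.1 ± 1.75 in the heterozygote libraries on that scale. By their means, Ccnb2 and Ccna1 were still first and second, and Ccna2 and Ccnb3 were still last. In the knockout-labelled libraries, the values of Ccna1 on that scale overlapped those of Ccnb2 and of Cdk2. The coding-length scale keeps all reads of a gene, also those outside the coding sequence. It therefore raises most the genes whose gene length far exceeds their coding length, such as Cdk2 and Cdk1. Ratios between the groups do not depend on this choice, because the length is the same in every library.

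Among the A-type cyclins, cyclin A1 is needed by mouse spermatocytes to enter the first meiotic division, and cyclin A2 serves S phase and mitosis. Ccna1 (ENSMUSG00000027793, chr3:55045469-55055501, minus strand, 9 exons in its principal transcript, GRCm38 like all gene positions here) had 86.5, 68.2 and 69.8 FPKM in the knockout-labelled libraries, against 85.7, 78.0 and 72.7 FPKM in the heterozygote libraries. The first library of each group was the highest, and the 2 lowest values were both labelled knockout. The log2 difference was -0.08 (SE 0.12, 95% interval -0.37 to 0.21, limma with Benjamini-Hochberg adjusted p = 0.902). Ccna2 (ENSMUSG00000027715, chr3:36564865-36572150, minus strand, 8 exons) had 2.42, 2.05 and 2.60 FPKM in the knockout-labelled libraries, against 2.20, 1.93 and 2.47 FPKM in the heterozygote libraries. These values interleave, and the log2 difference was 0.07 (SE 0.12, interval -0.22 to 0.35, limma with Benjamini-Hochberg adjusted p = 0.911). The ratio of Ccna1 to Ccna2 was 35.7, 33.3 and 26.8 in the knockout-labelled libraries and 38.9, 40.4 and 29.4 in the heterozygote libraries, so the spermatocyte cyclin was in excess in all 6 libraries. Per coding length the ratio was 14.4 ± 2.07 in the knockout-labelled libraries and 16.3 ± 2.69 in the heterozygote libraries (SD, n = 3 each).

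Among the B-type cyclins, cyclin B1 is essential for division in mice, cyclin B2 is a close relative whose loss male mice tolerate, and cyclin B3 acts in oocytes, where mouse females need it for the first meiotic division. Ccnb1 (ENSMUSG00000041431, chr13:100778650-100786570, minus strand, 9 exons) had 23.9, 21.8 and 20.6 FPKM in the knockout-labelled libraries, against 23.7, 18.6 and 20.3 FPKM in the heterozygote libraries. The 2 groups overlapped, with a log2 difference of 0.08 (SE 0.11, interval -0.18 to 0.35, limma with Benjamini-Hochberg adjusted p = 0.885). Ccnb2 (ENSMUSG00000032218, chr9:70407692-70421547, minus strand, 9 exons) had 103.7, 96.1 and 99.3 FPKM in the knockout-labelled libraries, against 113.8, 99.99 and 100.1 FPKM in the heterozygote libraries. Its highest value was the first heterozygote library and the other 5 lay close together, with a log2 difference of -0.07 (SE 0.09, interval -0.29 to 0.16, limma with Benjamini-Hochberg adjusted p = 0.890). Ccnb3 (ENSMUSG00000051592, chrX:6979652-7041619, minus strand, 12 exons) had 1.39, 1.35 and 0.977 FPKM in the knockout-labelled libraries, against 1.22, 1.36 and 1.71 FPKM in the heterozygote libraries. Its lowest value was the third knockout-labelled library and its highest the third heterozygote library, and the log2 difference was -0.12 (SE 0.13, interval -0.44 to 0.20, limma with Benjamini-Hochberg adjusted p = 0.874).

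Cyclin B2 transcripts outnumbered those of cyclin B1 in all 6 libraries. The ratio of Ccnb2 to Ccnb1 was 4.52 ± 0.268 in the knockout-labelled libraries and 5.03 ± 0.300 in the heterozygote libraries per gene length, and 1.77 and 1.97 per coding length (means, n = 3 each). Summed over the 5 cyclins, the level was 218, 190 and 193 FPKM in the knockout-labelled libraries, against 227, 200 and 197 FPKM in the heterozygote libraries. Ccnb2 made up 49.9 ± 2.03% of that sum in the knockout-labelled libraries and 50.3 ± 0.382% in the heterozygote libraries, and Ccna1 made up 37.3 ± 2.10% and 37.9 ± 1.10% in the same groups (SD, n = 3 each). The share of Ccnb1 was 10.98%, 11.5% and 10.6% in the knockout-labelled libraries, against 10.5%, 9.31% and 10.3% in the heterozygote libraries. It was the only share of the 5 cyclins whose groups did not overlap, it was read off after the shares were computed, and it carries no test.

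Of the kinases that pair with these cyclins, CDK1 drives the meiotic divisions, and CDK2 is needed in mouse spermatocytes for meiotic prophase, where it sits at telomeres. Cdk1 (ENSMUSG00000019942, chr10:69335146-69352938, minus strand, 8 exons) had 8.50, 7.78 and 9.58 FPKM in the knockout-labelled libraries, against 7.996, 7.42 and 7.93 FPKM in the heterozygote libraries. The 2 highest values were labelled knockout, but the second knockout-labelled library lay below 2 of the heterozygote libraries. The log2 difference, the highest of the 10 genes, was 0.13 (SE 0.10, interval -0.11 to 0.36, unadjusted p = 0.243, limma with Benjamini-Hochberg adjusted p = 0.868). Cdk2 (ENSMUSG00000025358, chr10:128697939-128705031, minus strand, 7 exons) had 11.1, 11.8 and 14.8 FPKM in the knockout-labelled libraries, against 11.1, 12.2 and 13.0 FPKM in the heterozygote libraries. Its log2 difference was 0.04 (SE 0.12, interval -0.25 to 0.34, limma with Benjamini-Hochberg adjusted p = 0.946). The sign for Cdk2 changed without the third knockout-labelled library (-0.07) and also without the first heterozygote library (-0.01).

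Of 7 ratios between the genes, 1 had groups that did not overlap. Ccnb2 over Cdk1 was 12.2, 12.3 and 10.4 in the knockout-labelled libraries, against 14.2, 13.5 and 12.6 in the heterozygote libraries, a mean of 11.6 ± 1.11 and 13.4 ± 0.801 in these groups (SD, n = 3 each). It was read off among the 7 ratios after they were computed and carries no test. The ratio of Cdk2 to Cdk1 was 1.46 ± 0.130 in the knockout-labelled libraries and 1.56 ± 0.145 in the heterozygote libraries (SD, n = 3 each), and those groups overlapped.

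CDC25C is a phosphatase that removes the inhibitory phosphates from CDK1, and mice without it are viable and fertile. Cdc25c (ENSMUSG00000044201, chr18:34732997-34751533, minus strand, 15 exons) had 10.6, 7.64 and 7.69 FPKM in the knockout-labelled libraries, against 9.65, 10.02 and 8.71 FPKM in the heterozygote libraries. The highest value and the 2 lowest were all labelled knockout. The log2 difference, the lowest of the 10 genes, was -0.13 (SE 0.14, interval -0.45 to 0.19, unadjusted p = 0.375, limma with Benjamini-Hochberg adjusted p = 0.869). Without the first knockout-labelled library, Cdc25c differed by -0.27 (unadjusted p = 0.0274, limma with Benjamini-Hochberg adjusted p = 0.229). It was the only unadjusted p under 0.05 among the 10 genes when libraries were left out in turn. Over all genes, that setting gave 3493 genes with an unadjusted p under 0.05, against 741 with all 6 libraries, so the value is not particular to Cdc25c. Without the other 2 knockout-labelled libraries, the difference of Cdc25c was 0.15.

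PLK1 is a kinase of mitotic and meiotic entry that also helps to take down the synaptonemal complex in mouse spermatocytes. Plk1 (ENSMUSG00000030867, chr7:122159439-122169873, plus strand, 10 exons) had 54.8, 61.3 and 55.1 FPKM in the knockout-labelled libraries, against 59.3, 50.9 and 49.1 FPKM in the heterozygote libraries. The first heterozygote library was higher than 2 of the knockout-labelled libraries, and the log2 difference was 0.11 (SE 0.10, interval -0.14 to 0.35, limma with Benjamini-Hochberg adjusted p = 0.868). AURKC is the Aurora kinase of the chromosomal passenger complex in meiosis. Aurkc (ENSMUSG00000070837, chr7:6995300-7003091, plus strand, 7 exons) had 9.69, 9.31 and 10.5 FPKM in the knockout-labelled libraries, against 11.7, 8.44 and 9.43 FPKM in the heterozygote libraries. Its knockout values lay inside the heterozygote range, and the log2 difference was 0.01 (SE 0.13, interval -0.29 to 0.31, limma with Benjamini-Hochberg adjusted p = 0.989).

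**Figure D2:**
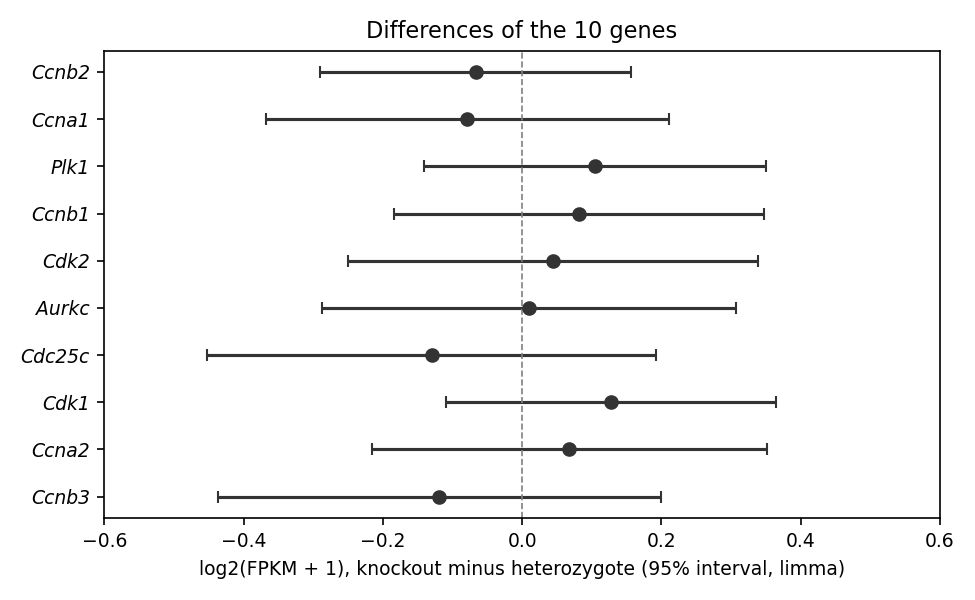
Difference of each gene on the log2(FPKM + 1) scale, knockout-labelled minus heterozygote, with its 95% interval from limma. Every interval includes 0, and the points lie between -0.13 for Cdc25c and 0.13 for Cdk1.

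As a fold on the FPKM + 1 scale, the 10 intervals reached from 0.731 (the lower end for Cdc25c) to 1.29 (the upper end for Cdk1). Changes beyond those folds lay outside the 95% interval of every one of the 10 genes on that scale only. For the low genes the scale narrows the interval. With a pseudocount of 0.01 in place of 1, the log2 difference was -0.21 (SE 0.23, limma) for Ccnb3 and 0.10 (SE 0.17) for Ccna2. Wider folds in FPKM are thus not excluded for these 2 genes. The median SE of the 10 genes was 0.122, beside 0.136 over all genes tested.

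Counting error was a small part of the spread for the abundant genes. Ccnb2 was covered by 3003, 2552 and 2965 reads in the knockout-labelled libraries and 2865, 2835 and 2946 reads in the heterozygote libraries, which gives a counting error of 1.87%. Ccnb3 was covered by 120, 107 and 87 reads in the knockout-labelled libraries and 92, 115 and 150 reads in the heterozygote libraries, with a counting error of 9.46%. The coefficients of variation (CV) between libraries were 3.82% and 7.55% for Ccnb2 and 18.4% and 17.5% for Ccnb3 in the knockout-labelled and heterozygote libraries. Several genes had unequal CVs in the 2 groups, in either direction. The CV of Cdc25c was 19.6% in the knockout-labelled libraries and 7.09% in the heterozygote libraries, that of Cdk2 15.8% and 7.85%, that of Cdk1 10.5% and 4.06%, and that of Aurkc 6.39% and 16.7% in the same groups. These errors cover counting only.

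**Figure D3:**
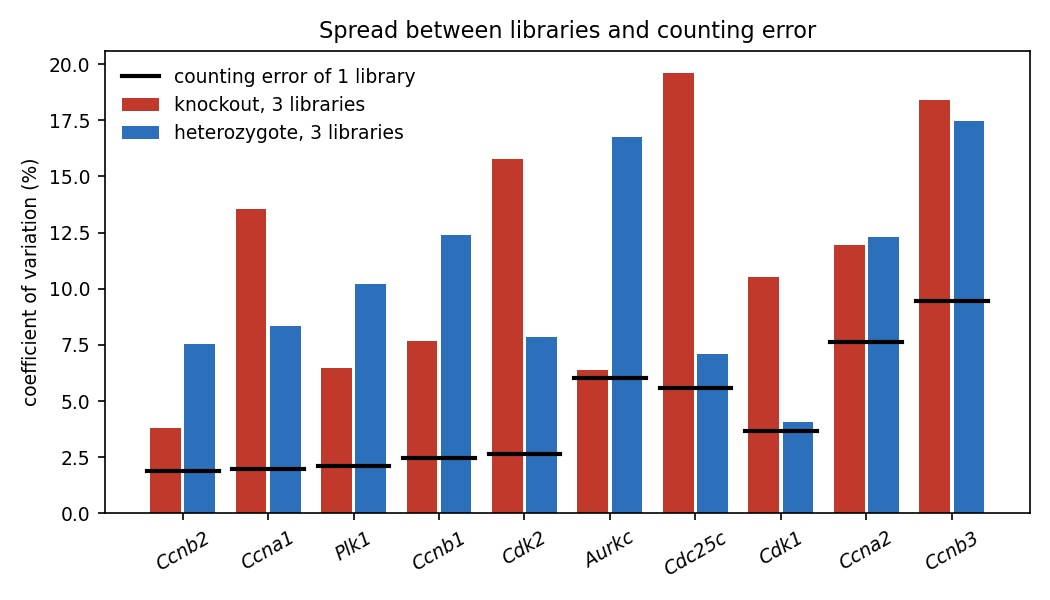
Coefficient of variation between 3 libraries (bars, in percent) for each gene, knockout-labelled left of heterozygote, with the counting error of 1 library as a black line. The line is lowest for Ccnb2 (1.87%) and highest for Ccnb3 (9.46%), and the tallest knockout bar is that of Cdc25c (19.6%).

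Every marker of the 9 cell type lists read was above 0 in at least 1 library, the spermatocyte and spermatid lists among them. The libraries also differed in these markers, and their levels are set beside those of the genes library by library. Values here are log2(FPKM + 1) minus the mean over the 6 libraries, for a marker list as the mean over its genes. Ccna1 stood at 0.18, -0.16 and -0.13 and Cdc25c at 0.22, -0.21 and -0.20 in the knockout-labelled libraries, against 0.16, 0.03 and -0.07 for Ccna1 and 0.09, 0.14 and -0.04 for Cdc25c in the heterozygote libraries. The elongated spermatid list stood at 0.37, -0.40 and -0.60 in the knockout-labelled libraries, against 0.55, 0.25 and -0.18 in the heterozygote libraries, and the round spermatid list at 0.17, -0.19 and -0.23, against 0.19, 0.06 and -0.01. For both genes and both lists, the first knockout-labelled library was thus above the mean and the other 2 below it. The spermatocyte list had the same signs in these libraries, at 0.04, -0.14 and -0.08, so the pattern is not particular to the spermatid lists. Summed FPKM of the 8 elongated spermatid markers ran from 7755 to 15049 in the knockout-labelled libraries and from 10306 to 17864 in the heterozygote libraries, 0 of the 8 being higher in the knockout-labelled mean, and none of the listed genes passed the test. Their part in the values of Ccna1 and Cdc25c was not tested.

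Ccna2, Cdk1 and Cdk2 were all highest in the third knockout-labelled library, which also had the highest spermatogonial level, 0.22, and the highest Sertoli cell level, 0.27. The macrophage and leukocyte list was highest there too, at 0.30. The Leydig, elongated spermatid and round spermatid lists were lowest there, at -0.64, -0.60 and -0.23, so this library stood apart in several lists. In the knockout-labelled libraries Ccna2 stood at 0.07, -0.10 and 0.14, Cdk1 at 0.05, -0.06 and 0.21, and Cdk2 at -0.13, -0.06 and 0.25. In the heterozygote libraries Ccna2 stood at -0.03, -0.16 and 0.09, Cdk1 at -0.03, -0.12 and -0.04, and Cdk2 at -0.13, -0.01 and 0.08. In the other 2 knockout-labelled libraries the genes and the spermatogonial and Sertoli lists did not all go together. In the first, Ccna2 and Cdk1 were above the mean, while Cdk2 and both of these lists were below it. In the second, all 3 genes were below the mean and both of these lists above it. The spermatogonial list stood at -0.10, 0.03 and 0.22 in the knockout-labelled libraries, against -0.06, -0.10 and 0.01 in the heterozygote libraries, with log2 differences above 0 in 5 of 8 genes and sums of 44.9 to 63.4 FPKM against 47.0 to 50.8 FPKM. The Sertoli list stood at -0.08, 0.19 and 0.27 in the knockout-labelled libraries, against -0.17, -0.17 and -0.03 in the heterozygote libraries, and had differences above 0 in 8 of 8 genes, with sums of 445 to 573 FPKM in the knockout-labelled libraries against 441 to 466 FPKM in the heterozygote libraries, and macrophages and leukocytes in 7 of 7 tested genes, with sums of 45.6 to 62.9 FPKM against 43.3 to 44.5 FPKM. The spermatocyte list, the cells in which most of the 10 genes act, stood at 0.04, -0.14 and -0.08 in the knockout-labelled libraries, against 0.08, 0.04 and 0.06 in the heterozygote libraries, so that only the first knockout-labelled library reached the heterozygote range. Its median log2 difference was -0.13, with differences above 0 in 5 of 12 genes and sums of 3092 to 3655 FPKM in the knockout-labelled libraries against 3332 to 3904 FPKM in the heterozygote libraries. No marker of these lists passed the test, and their part in the values of the 10 genes was not tested.

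**Figure D4:**
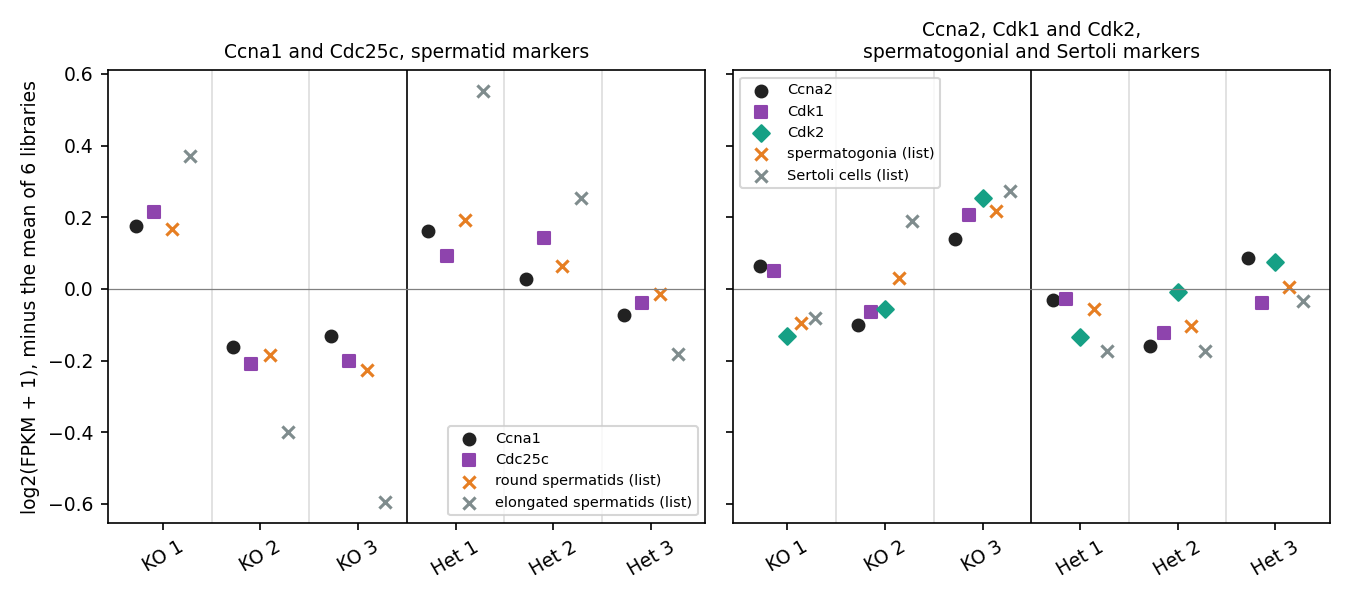
Level per library on the log2(FPKM + 1) scale minus the mean over 6 libraries, for genes (filled symbols) and marker lists (crosses), knockout-labelled libraries left of heterozygote libraries. On the left, Ccna1 (0.18) and Cdc25c (0.22) lie above 0 in the first knockout-labelled library and below 0 in the other 2, as do both spermatid lists, and on the right Ccna2, Cdk1 and Cdk2 are highest in the third knockout-labelled library.

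The genes whose levels ran most closely with the 3 most abundant of the 10 were found by Pearson's r over the 6 libraries among 9510 protein-coding genes, as a description with no p, since all points share the same libraries. For Ccnb2 they were Spatc1l (r = 0.995), Ckap4 (0.992) and R3hcc1 (0.979), for Ccna1 they were Fech (0.994), Spdye4c (0.992) and Spata17 (0.992), and for Plk1 they were Leng1 (0.985), Thop1 (0.981) and Traf3ip1 (0.980). With 6 points such values are common: 136 genes had r over 0.9 with Ccnb2, 423 with Ccna1 and 117 with Plk1. Spata17 showed the pattern of Ccna1 on a wider scale, with 35.8, 23.9 and 25.8 FPKM in the knockout-labelled libraries, against 33.8, 30.4 and 26.7 FPKM in the heterozygote libraries.

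Some of the 10 genes share sequence with copies or overlap other genes, and their values are less certain for it. Of the 31-base words in the annotated transcripts of Aurkc, 67.1% also occur in another gene, most of them in Gm12463, and the share was 27.8% for Ccnb1 (Ccnb1-ps), 18.7% for Plk1 (Plk-ps1), 13.3% for Cdc25c (Gm3550), 12.04% for Ccna2 (Exosc9) and 8.18% for Ccna1 (4931419H13Rik). Gm12463 was listed with 11.5, 10.2 and 11.4 FPKM in the knockout-labelled libraries, against 6.66, 10.6 and 9.99 FPKM in the heterozygote libraries, a level near that of Aurkc, and no source used here says how reads were split between them. The reads of both added together were 24.5, 22.8 and 25.7 per 1000000 of the implied library size in the knockout-labelled libraries, against 23.4, 21.8 and 22.8 in the heterozygote libraries, so the groups overlapped for the sum as well. Ccnb1-ps averaged 1.02 ± 0.0669 FPKM in the knockout-labelled libraries and 0.869 ± 0.194 FPKM in the heterozygote libraries (SD, n = 3 each), far below Ccnb1. Ccna1, Ccna2, Cdk2, Cdc25c and Plk1 overlap a gene on the opposite strand, and whether counting used strand is not given.

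Around the 10 genes, 5 lists of pathway genes were read in the same fit, and 0 of their 118 tested genes had an adjusted p under 0.05 with limma and Benjamini-Hochberg adjustment. In every knockout-labelled library, 3 of the 118 (2.54%) were higher and 7 (5.93%) lower than in every heterozygote library, beside the 4.15% and 4.41% of all genes tested. The list of CDK1 regulators (22 of 23 tested, Wee2 being too low at 0.0481 FPKM) had 8 differences above 0 and 14 below, with a median of -0.02. Hspa2, a testis chaperone needed for the CDK1 complex of mouse spermatocytes, was the most abundant with 698 ± 47.6 FPKM in the knockout-labelled libraries and 623 ± 30.4 FPKM in the heterozygote libraries, followed by Cks2, a CDK-binding subunit, with 84.1 ± 9.61 and 84.9 ± 8.28 FPKM in the same groups (SD, n = 3 each). Pkmyt1, a kinase that inhibits CDK1, had 11.7, 14.5 and 17.2 FPKM in the knockout-labelled libraries, against 11.6, 12.01 and 10.8 FPKM in the heterozygote libraries, a log2 difference of 0.30 (SE 0.14, unadjusted p = 0.069 with limma). Cks1b had 5.02, 6.30 and 6.97 FPKM in the knockout-labelled libraries, against 4.64, 5.18 and 4.67 FPKM in the heterozygote libraries. Both overlapped between the groups, and both were highest in the third knockout-labelled library. Cdc25b, a relative of Cdc25c, had 0.652, 0.650 and 0.991 FPKM in the knockout-labelled libraries, against 0.538, 0.492 and 0.572 FPKM in the heterozygote libraries, and was the only gene of this list above every heterozygote value, while Ppp2r2a and Plk4 were below every one.

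The list of the anaphase-promoting complex and its regulators (22 of 22 tested) had 11 differences above 0 and 11 below, with a median of 0.03. The complex marks the cyclins for destruction. Cdc20, its activator at metaphase, had 93.6 ± 6.87 FPKM in the knockout-labelled libraries and 86.6 ± 4.47 FPKM in the heterozygote libraries, and Ube2s had 67.5 ± 6.78 and 68.3 ± 6.37 FPKM in the same groups (SD, n = 3 each). Cdc26 was the only gene of this list whose groups did not overlap, with 1.74, 1.88 and 2.11 FPKM in the knockout-labelled libraries, against 1.56, 1.65 and 1.49 FPKM in the heterozygote libraries. Ube2c, the ubiquitin-conjugating partner of the complex, had 8.11 ± 0.359 FPKM in the knockout-labelled libraries and 7.09 ± 1.19 FPKM in the heterozygote libraries (SD, n = 3 each).

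The chromosomal passenger and spindle checkpoint list (21 of 21 tested) had 10 differences above 0 and 11 below, with a median of -0.03. Haspin, the histone kinase that recruits the passenger complex, had 293 ± 26.3 FPKM in the knockout-labelled libraries and 309 ± 16.3 FPKM in the heterozygote libraries (SD, n = 3 each), above all 10 division genes. Aurka, the spindle pole relative of Aurkc, had 71.1 ± 4.41 FPKM in the knockout-labelled libraries and 70.8 ± 5.15 FPKM in the heterozygote libraries (SD, n = 3 each). Bub1 had 23.0 ± 2.78 and 25.6 ± 1.79 FPKM in the same groups, and Mad2l1bp had 10.5 ± 1.63 and 8.93 ± 1.62 FPKM. Ndc80, a kinetochore subunit, was the only gene of this list whose groups did not overlap, with 4.34, 3.89 and 4.35 FPKM in the knockout-labelled libraries, against 4.36, 4.54 and 4.91 FPKM in the heterozygote libraries.

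The list of other cyclins and CDKs (32 of 32 tested) also held Ccnb1ip1 and Prr19, which are neither. It had 14 differences above 0 and 18 below, with a median of -0.00. Ccnk, a cyclin of transcription, was the most abundant with 180.1 ± 6.74 FPKM in the knockout-labelled libraries and 186 ± 4.97 FPKM in the heterozygote libraries (SD, n = 3 each). Ccni had 107, 102 and 98.6 FPKM in the knockout-labelled libraries, against 112, 115 and 108 FPKM in the heterozygote libraries, and Ccnb1ip1, a crossover factor of meiosis, had 4.35, 4.47 and 4.52 FPKM in the knockout-labelled libraries, against 3.81, 3.47 and 4.15 FPKM in the heterozygote libraries. In these 2 genes and in Ccny the groups did not overlap. Ccne2 had 7.97 ± 0.793 FPKM in the knockout-labelled libraries and 9.26 ± 0.849 FPKM in the heterozygote libraries (SD, n = 3 each).

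The list of transcription and translation regulators of division genes (21 of 21 tested) had 9 differences above 0 and 12 below, with a median of -0.03. Mybl1, the Myb factor that switches on pachytene genes in mouse spermatocytes had 17.1, 15.9 and 12.8 FPKM in the knockout-labelled libraries, against 17.2, 19.6 and 21.6 FPKM in the heterozygote libraries. Its groups did not overlap, and the log2 difference was -0.34 (SE 0.13, unadjusted p = 0.0391, limma with Benjamini-Hochberg adjusted p = 0.868). It was the only one of the 118 list genes with an unadjusted p under 0.05, beside the 2.38% of all genes tested that were lower at that level. Dazl, an RNA-binding protein of germ cells, had 47.4, 39.9 and 44.4 FPKM in the knockout-labelled libraries, against 50.6, 49.7 and 52.6 FPKM in the heterozygote libraries, again without overlap (unadjusted p = 0.0556, limma with Benjamini-Hochberg adjusted p = 0.868). Tcfl5 had 133 ± 4.55 FPKM in the knockout-labelled libraries and 138 ± 12.5 FPKM in the heterozygote libraries, and Zfp541 had 97.5 ± 9.92 and 89.8 ± 2.54 FPKM in the same groups (SD, n = 3 each).

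**Figure D5:**
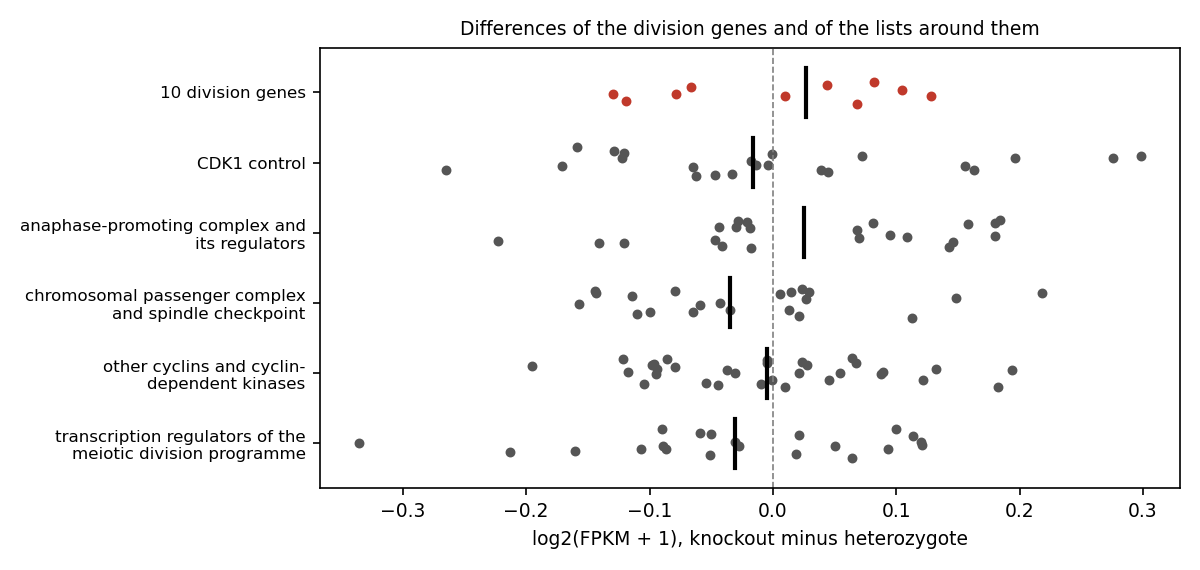
Differences on the log2(FPKM + 1) scale, knockout-labelled minus heterozygote, for the 10 genes and for the genes of the 5 pathway lists, 1 point per gene with the median marked. The 10 genes lie between -0.13 and 0.13 around a median of 0.03, and the lowest list gene is Mybl1 at -0.34.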

How the data were processed

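RNA of whole testis was extracted with Trizol and made into libraries with a SMARTER mRNA-Seq kit, per the labels' protocols. The authors deposited 1 table of FPKM values per gene for the 6 libraries, with gene length and position. The build is GRCm38 (mm10), per the submitters' processing notes; no source used here names the aligner, counter, annotation release or strand setting. Whole reads were recovered from the deposited FPKM and gene lengths for 100% of values above 0 (tolerance 0.001 reads). Genes averaging 0.5 FPKM or more were tested with limma 3.58.1 (R 4.3.3; lmFit and eBayes with trend, group only) on log2(FPKM + 1), with Benjamini-Hochberg adjustment over all genes and a threshold of 0.05; the code was tested on simulated data. With 3 against 3 libraries the smallest exact permutation p is 0.1. Named genes were all 10 division genes, Tmc7, in each pathway list the 2 of highest mean and the 2 of smallest unadjusted p, and 3 likest genes for the 3 most abundant; Cdc25b, Ppp2r2a, Plk4, Ndc80, Ccny and partner genes with shared sequence were added for their values. The 10 genes and all lists were chosen with earlier results of these data known. Transcripts and coding lengths came from GENCODE M21. No 2 libraries were duplicates. Chi-square per degree of freedom between knockout-labelled library 1 and heterozygote libraries 1, 2 and 3 was 4.52, 5.39 and 11.4. Between it and knockout-labelled libraries 2 and 3 it was 22.6 and 30.1, and between those libraries 14.3. Knockout-labelled library 1 thus lay nearer to every heterozygote library than to its own group. The cause of this, and whether its label is right, was not tested. Alternatives were other pseudocounts, filters, scalings, a replicate block, limma-voom on the recovered reads, array weights and leaving out libraries.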

Additional observations from a re-analysis of the deposited data

How the results depend on the processing

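None of the 10 division genes reached an adjusted p under 0.05 in any of 169 recomputed values under 17 settings (smallest 0.229), and Ccnb3 could not be tested with a filter at a mean of 2 FPKM. Over all genes, limma-voom on recovered reads called 1 gene (Srp54b, adjusted p = 0.0195, named after its values were seen), and no other setting called any. Genes at an unadjusted p under 0.05 numbered 741, and 1336 with every gene above 0, 418 with a filter at a mean of 2 FPKM, 2176 with array weights, 1411 with a replicate block, and 477 to 3493 with 1 library left out (without the second and the first knockout-labelled library). Same-numbered libraries deviated together with r of 0.286, 0.041 and 0.198, and differently numbered ones with r from -0.322 to 0.170. The labels state no pairing, so the main fit held the group only. Whether same-numbered libraries share an origin was not tested. With 1 library left out, 0 to 1 of the 10 genes had an unadjusted p under 0.05. Of the 169 values, 10 had the opposite sign, and 5 genes had none. With 1 library left out, the log2 difference ran from -0.072 to 0.121 for Cdk2, -0.085 to 0.127 for Aurkc, -0.0996 to 0.060 for Cks2, -0.097 to 0.049 for Ube2s and -0.049 to 0.055 for Aurka. Quantile normalization gave 0.015 for Ccnb2, 0.053 for Cks2, 0.042 for Ube2s, 0.0094 for Haspin, 0.025 for Ccnk and 0.013 for Tcfl5, and array weights gave 0.032 for Ube2s. Without knockout-labelled libraries 2 and 3, which held more small RNA reads (0.335% and 0.281%, against 0.0949% in the first), values were 0.14 for Ccna1, -0.11 for Cdk2, 0.15 for Cdc25c, -0.010 for Aurkc, 0.035 for Haspin and 0.012 for Bub1; this setting was added after seeing the data and assumes that the lone library varies like the others. The cause of these shifts was not tested. With 3 libraries a group, depth limits Ccnb3 and Ccna2 most.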
